A study of Homo sapiens with 4 samples.

Results

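Small nucleolar RNAs (snoRNAs) and small Cajal body RNAs (scaRNAs) were read in RD and JR1 cells with and without knockdown of SKP2. The genes were taken by symbol: SNORD and a digit for box C/D snoRNAs, SNORA and a digit for box H/ACA snoRNAs, and SCARNA and a digit for scaRNAs. Of 39323 genes in the tables, 568 matched, and 90 of these reached a mean of 1 TPM over the 4 libraries (TPM, transcripts of a gene among 1000000 transcripts). These 90 members were 11 box C/D, 64 box H/ACA and 15 scaRNA genes. RD and JR1 are established lines of fusion-negative rhabdomyosarcoma, a childhood tumor of muscle-like cells, and both carry mutated p53, with WT given as the genotype label. Each line had been infected with pLKO.1-puro lentivirus for a non-targeting shRNA (shSCR) or for 1 shRNA against SKP2 (shSKP2, the vector shSKP2.2), so that all 4 groups carry a vector. The time from infection to harvest is not given in the labels. There was 1 poly-A selected library for each line and condition, so differences between conditions stand without replicates and were not tested.

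Box C/D and box H/ACA snoRNAs work in the nucleolus. The first guide the methylation of ribosomal RNA and the second the conversion of uridine to pseudouridine, and a few of either kind are needed instead to cut the ribosomal RNA precursor. scaRNAs guide the same modifications on spliceosomal RNAs in Cajal bodies, and may hold elements of both classes. Most human snoRNAs are trimmed out of introns of host genes, and the mature RNAs carry no poly-A tail. Whether a fragment in a poly-A selected library came from a mature RNA, a tailed intermediate or a host transcript cannot be told apart here.

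The sequences show the elements that define the classes. They were read from GRCh38 at the coordinates of the tables, on the annotated strand, and capitals mark TGATGA (the C box), CTGA in the last 12 bases (the D box) or ACA in the last 10 bases (the ACA box). SNORD14A, at chr11:17074653-17074744 on the minus strand, has the usual size of a box C/D RNA. SNORD3A, at chr17:19188016-19188232 on the plus strand, is the U3 RNA and the highest box C/D member. SNORA73A (chr1:28507365-28507571, plus strand) and SNORA71A (chr20:38427306-38427443, minus strand) are box H/ACA members that lie within annotated exons of the long noncoding genes SNHG3 and SNHG17.
SNORD14A: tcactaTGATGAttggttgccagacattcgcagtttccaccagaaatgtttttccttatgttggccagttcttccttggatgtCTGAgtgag
SNORD3A: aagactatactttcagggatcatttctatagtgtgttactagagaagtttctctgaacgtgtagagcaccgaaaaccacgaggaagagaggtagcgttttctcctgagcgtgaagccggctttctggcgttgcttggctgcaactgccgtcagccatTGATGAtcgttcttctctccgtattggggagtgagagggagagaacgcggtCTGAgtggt
SNORA73A: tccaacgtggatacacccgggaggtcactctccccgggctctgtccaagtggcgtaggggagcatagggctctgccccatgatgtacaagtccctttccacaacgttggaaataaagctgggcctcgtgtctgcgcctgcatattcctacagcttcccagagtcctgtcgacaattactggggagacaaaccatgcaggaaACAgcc
SNORA71A: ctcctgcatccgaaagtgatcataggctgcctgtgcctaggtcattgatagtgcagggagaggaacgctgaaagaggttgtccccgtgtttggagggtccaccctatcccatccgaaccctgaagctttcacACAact

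The scaRNAs SCARNA12 (chr12:6967337-6967606, minus strand, in PHB2) and SCARNA6 (chr2:233288676-233288941, plus strand, in an intron of ATG16L1) are shown because the first was lower with shSKP2 in both lines and the second rose in RD. In SCARNA12 the D box and the ACA letters overlap at the end.
SCARNA12: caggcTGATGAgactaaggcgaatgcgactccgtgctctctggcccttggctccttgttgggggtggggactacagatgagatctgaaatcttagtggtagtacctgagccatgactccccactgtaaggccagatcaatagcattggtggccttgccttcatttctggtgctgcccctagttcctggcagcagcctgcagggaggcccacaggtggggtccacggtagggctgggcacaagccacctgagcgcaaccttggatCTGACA
SCARNA6: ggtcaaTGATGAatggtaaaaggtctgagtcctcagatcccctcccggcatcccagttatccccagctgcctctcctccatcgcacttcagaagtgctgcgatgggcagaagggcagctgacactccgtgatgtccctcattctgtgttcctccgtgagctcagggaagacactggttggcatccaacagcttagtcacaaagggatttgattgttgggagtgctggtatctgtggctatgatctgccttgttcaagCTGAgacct

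The strand was found for 81 members, and only these were searched, on the strand of the gene. ACA stood in the last 10 bases of 56 of 59 box H/ACA genes (94.9%), 5 of 13 scaRNA genes and 0 of 9 box C/D genes. TGATGA was held by 7 of 9 box C/D genes, 11 of 13 scaRNA genes and 1 of 59 box H/ACA genes. In the regions of the same length just before the 81 genes, ACA in the last 10 bases stood in 11.1% and TGATGA in 9.88%. SNORD10 and SNORD97 are the box C/D genes without these letters in the annotated window.

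Which snoRNAs had a value at all went with the length of the gene (the plot of level against length). None of the 2877 genes shorter than 129 bases in the tables, of any kind, had a TPM above 0 in any library. That limit removed 333 of 357 box C/D genes (93.3%), 34 of 182 box H/ACA genes (18.7%) and 3 of 29 scaRNA genes (10.3%). The median box C/D gene was 81 bases long, the median box H/ACA gene 134 and the median scaRNA gene 148. Among the 198 matching genes of 129 bases and longer, 95 were above 0 in at least 1 library, 11 of 24 box C/D, 69 of 148 box H/ACA and 15 of 26 scaRNA genes. All 124 box C/D genes of the imprinted SNORD64, SNORD107 to SNORD109 and SNORD112 to SNORD116 clusters were 33 to 104 bases long and listed at 0. Since every other gene of these lengths is also at 0, the value says nothing of whether these RNAs were made in the cells.

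**Figure D1:**
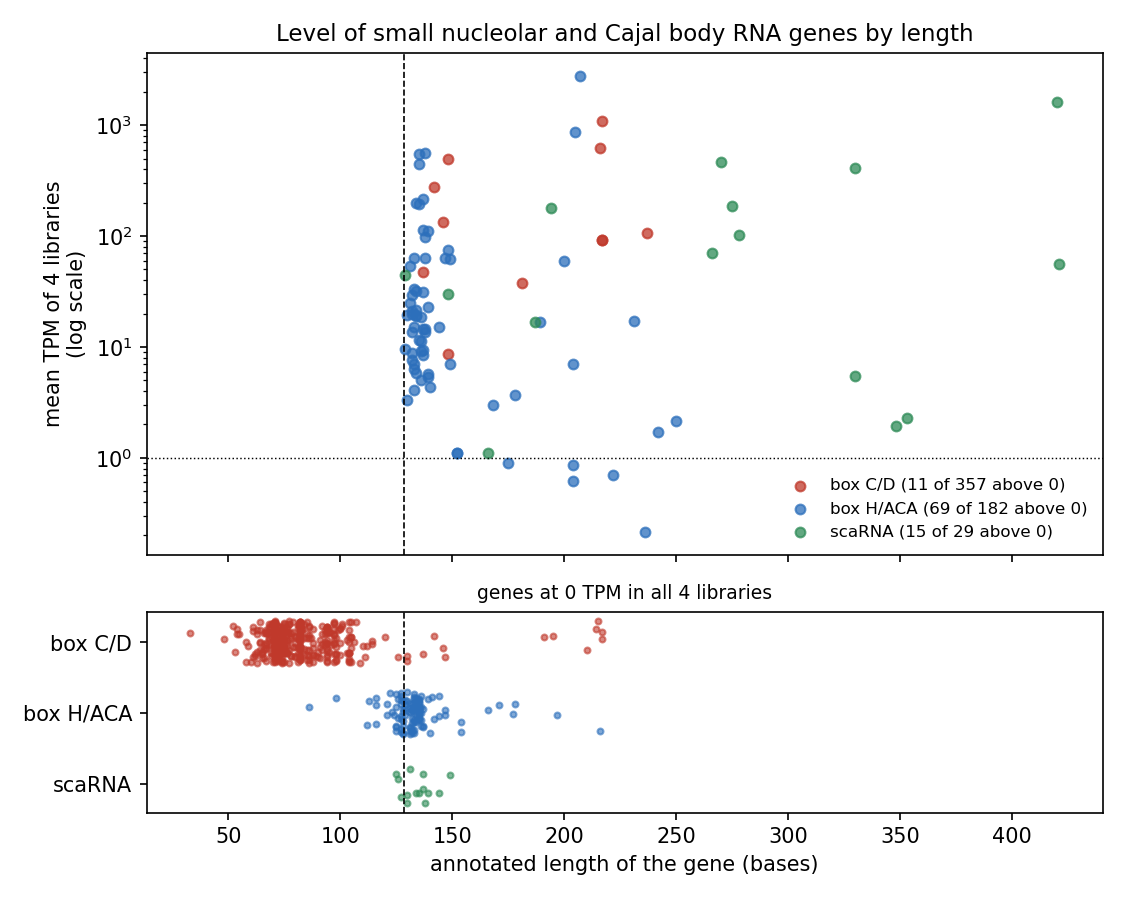
Mean TPM of 4 libraries (log scale) against annotated length in bases for the matching genes above 0, with the genes at 0 in every library below, by class. Dashed lines mark the shortest length with any value, 129 bases, and the dotted line the minimum mean of 1 TPM. Most box C/D genes lie to the left of the limit and are at 0.

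Just above that length a single fragment was worth many TPM. Low TPM of short genes were whole multiples of a step that depended on the length and the library, which gave the number of sequenced fragments (read pairs) behind a value. At 129 bases, 1 fragment was worth 63.1 TPM in RD shSCR, 45.2 in RD shSKP2, 38.4 in JR1 shSCR and 34.6 in JR1 shSKP2 (the plot of what 1 fragment is worth). At 420 bases it was worth 0.295, 0.211, 0.217 and 0.195 TPM. Since 4 TPM in 1 library already give a mean of 1, 1 fragment was enough for a gene of the usual box H/ACA length to be a member. Of 360 member values, 103 were 0 and 65 were a single fragment. Of the 179 values above 0 and of up to 20 fragments, 166 (92.7%) were whole within 0.1 fragment. The members together held 9678 fragments in RD shSCR, 16309 in RD shSKP2, 14344 in JR1 shSCR and 15279 in JR1 shSKP2.

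**Figure D2:**
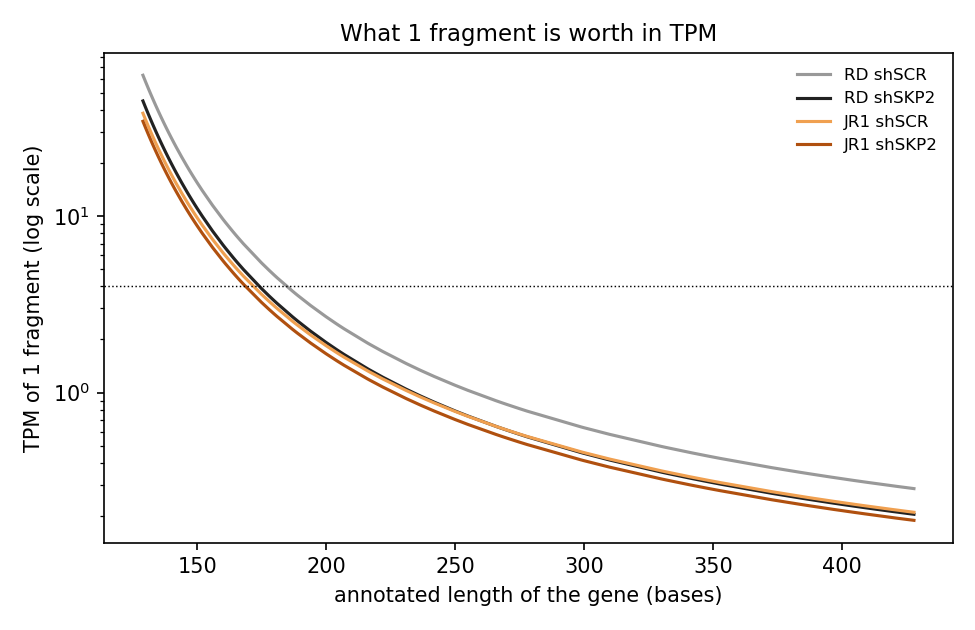
TPM that 1 fragment is worth (log scale) against gene length in bases, 1 line per library. The dotted line marks 4 TPM, the value in 1 library that gives a mean of 1. At 152 bases all 4 curves are still above it.

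A mean of at least 10 fragments was reached by 25 members, 9 box C/D, 7 box H/ACA and 9 scaRNA genes, and the other 65 were under it. The members just inside the minimum were SNORA59A and SNORA59B at a mean of 1.12 TPM and SCARNA1 at 1.11 TPM. Just outside it were SNORA90 at 0.900, SNORA74C-1 at 0.858 and SNORA87 at 0.698 TPM. Each of these 6 rested on values in at most 2 libraries. Intervals for ratios in this text are exact 95% binomial (Clopper-Pearson) intervals on the fragments of both libraries. They cover counting error only, not the spread between cultures, and the fragments carry no molecular identifiers.

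The level was concentrated in few genes. SNORA73A, SCARNA2 and SNORD3A held 41.1% of the summed mean TPM of the members, and the 10 highest members held 71.0% (the plot of the 10 highest members). The members took 1.23% of all TPM in RD shSCR, 1.45% in RD shSKP2, 1.48% in JR1 shSCR and 1.18% in JR1 shSKP2. Box C/D members summed to 2471, 3350, 3561 and 2589 TPM in that order, which put shSKP2 above shSCR in RD and below it in JR1. Most of both differences lay in SNORD3A (864, 1376, 1383 and 718 TPM) and SNORD133 (433, 659, 809 and 570 TPM). Box H/ACA members summed to 6869, 7621, 8154 and 6018 TPM, with the same crossing. In RD the highest of them, SNORA73A (2946 and 2713 TPM) and SNORA73B (913 and 916 TPM), were lower or nearly level with shSKP2. The higher RD sum lay in members of few fragments, such as SNORA71A (11 and 30 fragments). scaRNA members summed to 3000, 3535, 3044 and 3143 TPM, higher with shSKP2 in both lines. Without SCARNA2 they summed to 1568, 1668, 1605 and 1469 TPM, lower with shSKP2 in JR1. On the log2 scale these sums differed by 0.44, 0.15 and 0.24 in RD and by -0.46, -0.44 and 0.05 in JR1 for box C/D, box H/ACA and scaRNA genes.

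**Figure D3:**
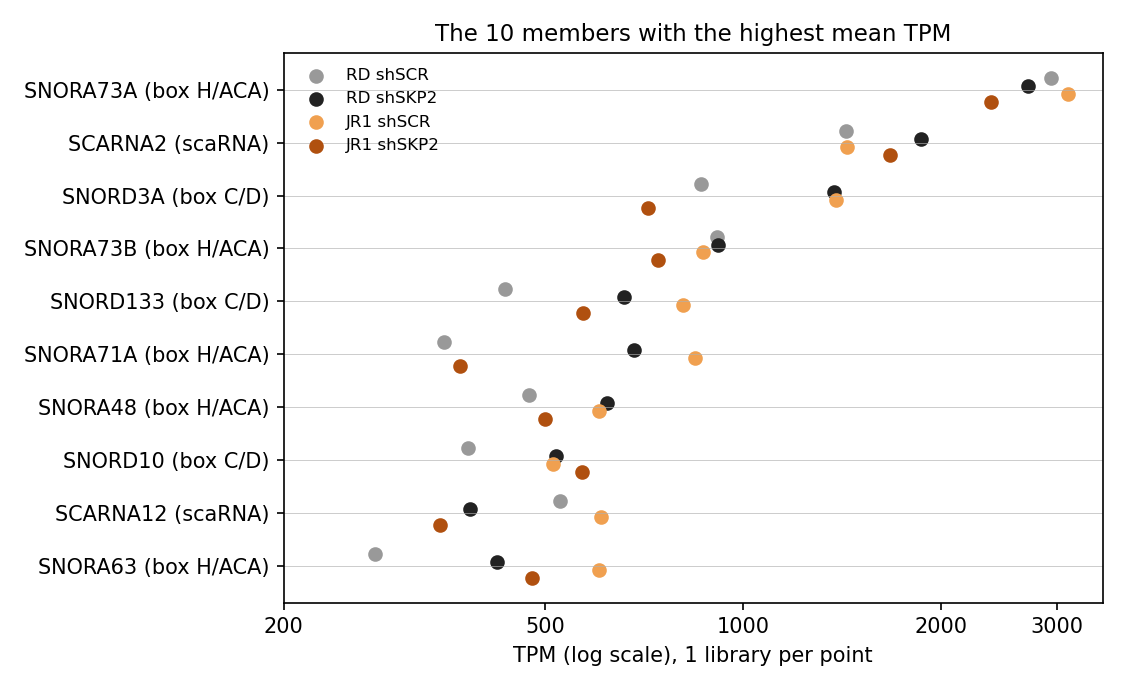
TPM (log scale) of the 10 members with the highest mean, 1 point per library. SNORA73A is highest in every library, and for 6 of the 10 (SNORD3A, SNORA73B, SNORD133, SNORA71A, SNORA48 and SNORA63) the RD pair and the JR1 pair are in opposite order. The RD pair of SNORA73B is nearly level (913 and 916 TPM). The RD interval of SNORA71A and both intervals of SNORA48 and SNORA63 hold 1.

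Other RNAs moved in the same libraries. SKP2 itself was 92.8 TPM in RD shSCR, 7.40 in RD shSKP2, 46.5 in JR1 shSCR and 2.72 in JR1 shSKP2, a change of -3.48 and -3.67 on the log2 scale. The myogenic markers MYOD1, MYOG, DES and CDH15 were between 31.6 and 131 TPM in every library, and MYF5 was listed at 0. The structural RNAs RN7SL1, RN7SL2 and RN7SK, which belong to the signal recognition particle and to the regulator of transcription elongation, held 47.8% of all TPM in the RD control and 59.7% after knockdown. In JR1 their share was 54.5% and 62.9%. RMRP and RPPH1, the RNAs of the RNase MRP and RNase P enzymes, were lower by less than 2-fold, with differences of their sum of -0.32 (RD) and -0.38 (JR1) on the log2 scale. Over the 12985 tested genes, those at or above the same minimum, the median change was -0.27 (RD) and -0.21 (JR1). The part of this rescaling in the members' values was not tested. Centring on that median adds 0.27 to every RD change and 0.21 to every JR1 change, and leaving out the other short structural RNA genes raises every log2 ratio of TPM, before the added 1, by 0.40 and 0.27.

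Changes with shSKP2 were computed as log2 of the ratio of TPM + 1, shSKP2 over shSCR of the same line, and a member was called when it reached 1 (2-fold) in either direction. In RD, 24 members rose and 10 fell, where 1.08% of all tested genes rose and 7.37% fell. In JR1, 15 members rose and 30 fell, where 1.78% of tested genes rose and 9.05% fell. In either direction 37.8% of members were called in RD and 50% in JR1, against 8.45% and 10.8% of all tested genes. Of the called members, 30 of 34 in RD and 42 of 45 in JR1 had a mean under 10 fragments, and 17 and 32 were listed at 0 in one of the libraries compared. Among the 25 members with at least 10 fragments, 3 rose and 1 fell in RD (16%) and 0 rose and 3 fell in JR1 (12%). The JR1 falls include SNORD3B-1 and SNORD3B-2, which are identical in sequence and have the same TPM, so 1 signal is counted under both names. Of the 41 other tested genes of 129 to 430 bases, 4 rose and 15 fell in RD (46.3%), and 2 rose and 14 fell in JR1 (39.0%).

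The median change of box C/D members was 0.14 (RD) and -0.15 (JR1), with 2 members up and 2 down by 2-fold in each line. The 2 that fell in JR1 are SNORD3B-1 and SNORD3B-2, copies with the same TPM in each library, which also count separately in the medians. Box H/ACA members had a median of 0.00 and -0.19, where 20 rose and 8 fell in RD, and 11 rose and 26 fell in JR1. scaRNA members had a median of 0.31 and 0.18, where 2 rose and 0 fell in RD, and 2 rose and 2 fell in JR1. The RD median of box H/ACA members includes 16 genes at 0 in both RD libraries. With at least 10 fragments the medians were 0.14 and -0.50 for 9 box C/D members, 0.39 and -0.34 for 7 box H/ACA members, and 0.31 and 0.07 for 9 scaRNA members, RD first. Over all members, the JR1 medians of box C/D and box H/ACA genes turned to 0.06 and 0.02 when centred on all tested genes. Members are not replicates of a condition, so no test between the classes was made.

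Among the RNAs that cut the ribosomal RNA precursor, the U3 genes differed most between the lines. SNORD3A was 864 TPM in RD shSCR, 1376 in RD shSKP2, 1383 in JR1 shSCR and 718 in JR1 shSKP2, from 460, 1025, 1059 and 611 fragments. In RD it was 1.59 times as high with shSKP2 (interval 1.43 to 1.78), and in JR1 it was 0.519 times as high (interval 0.469 to 0.574). The JR1 control stood at the level of the RD knockdown, and the order of the conditions was opposite in the lines. SNORD3B-1 and SNORD3B-2 are identical in sequence, differ from SNORD3A at 1 of 217 positions (A78C, from the 5′ end) and have the same TPM in each library. Each was 112 and 91.9 TPM in RD and 124 and 38.8 TPM in JR1, a fall of 1.65 on the log2 scale in JR1. Summed over the 3 U3 genes, the level was 1087, 1559, 1630 and 795 TPM, a log2 change of 0.52 (RD) and -1.03 (JR1). SNORD3C and SNORD3D, of the same length, were listed at 0, where 3 fragments, the limit that a count of 0 allows, are worth 5.6 TPM in RD shSCR and 3.5 TPM in JR1 shSKP2. That limit holds only if fragments of these genes were not assigned to another U3 gene, which was not tested.

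SNORA73A and SNORA73B are the copies of U17, the box H/ACA RNA needed for the small ribosomal subunit. SNORA73A was 2946 and 2713 TPM in RD and 3120 and 2383 TPM in JR1, shSCR first. The ratio of 0.921 in RD (interval 0.856 to 0.992) turned to a higher value with shSKP2 once centred or rescaled, and the ratio of 0.764 in JR1 (interval 0.715 to 0.816) stayed below 1 under each scaling. The RD interval of SNORA73A lay above 1 under both of the other scalings. SNORA73B was 913 and 916 TPM in RD and 870 and 742 TPM in JR1, and its small JR1 difference of -0.23 became 0.04 without the structural RNAs. Both copies thus changed by less than 2-fold in each line.

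SNORA63, SNORA74A and SNORA74B are the other members of this group. SNORA63 was 276 and 423 TPM in RD and 604 and 478 TPM in JR1, from 7 to 25 fragments, and both intervals held 1. SNORA74A was 56.7 and 51.9 TPM in RD and 77.2 and 55.0 TPM in JR1, and SNORA74B was between 3.05 and 14.8 TPM. Of the 19 genes listed for ribosomal RNA processing, 8 were members and 7 were under 129 bases, among them SNORD13, SNORD22 and SNORD14A to SNORD14E. SNORD118, the U8 RNA, is 137 bases long and was listed at 0 in all 4 libraries. At that length a count of 0 allows up to 102 TPM in RD shSCR and 56.7 TPM in JR1 shSKP2, so its level was not detectable at this depth.

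Among the other box C/D members, SNORD133 went in the same directions as SNORD3A. It was 433 TPM in RD shSCR, 659 in RD shSKP2, 809 in JR1 shSCR and 570 in JR1 shSKP2, from 227 to 608 fragments. The ratios were 1.52 in RD (interval 1.29 to 1.79) and 0.705 in JR1 (interval 0.623 to 0.796), and the JR1 direction held under each scaling. SNORD133 is 216 bases long and lies within LARP4. No strand was found for it, so its sequence was not compared with that of SNORD3A, which is 217 bases long. Whether they share fragments was not tested. SNORD10, in EIF4A1, was 381 and 519 TPM in RD and 513 and 569 TPM in JR1, and both intervals held 1. SNORD17, in an intron of SNX5, was 120 and 106 TPM in RD and 104 and 93.0 TPM in JR1, close to even on 90 to 112 fragments. SNORD134, within FASN, fell by 1.01 in RD on 16 and 11 fragments (interval of the ratio 0.206 to 1.13), and was at -0.74 once centred. SNORD15B, in an intron of RPS3, rose by 1.66 in RD on 2 and 9 fragments (interval of the ratio 0.666 to 30.6) and was 182 and 186 TPM in JR1.

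Of the box H/ACA members with at least 10 fragments, SNORA71A differed most between the lines. It was 351 TPM in RD shSCR, 683 in RD shSKP2, 846 in JR1 shSCR and 371 in JR1 shSKP2, from 11, 30, 43 and 21 fragments. The RD ratio was 1.95 (interval 0.9499 to 4.31), and the JR1 ratio was 0.439 (interval 0.248 to 0.757). Its changes of 0.96 and -1.19 became 1.23 and -0.97 when centred on all tested genes. Under both other scalings its RD interval lay above 1 and its JR1 interval stayed below 1. SNHG17, whose transcripts cover it, was 42.9 and 37.0 TPM in RD and 26.6 and 21.5 TPM in JR1. Its neighbours in the same host did not follow one pattern. SNORA71D was 95.6 and 68.3 TPM in RD and 177 and 53.0 TPM in JR1, SNORA71C went from 6 fragments to 1 in RD and from 2 to 0 in JR1, and SNORA71B rested on at most 2 fragments in any library. SNORA48, in EIF4A1, was 472 and 620 TPM in RD and 604 and 500 TPM in JR1, on 12 to 25 fragments, and both intervals held 1. SNORA70, in an exon of RPL10, fell by 1.21 in RD on 5 and 3 fragments (interval of the ratio 0.0666 to 2.21) and by 1.47 in JR1 on 15 and 6 fragments (interval 0.114 to 0.982). Under both other scalings the RD change was under 2-fold and the JR1 interval held 1. SNORA94, within UQCRC1, was 11.7 and 25.03 TPM in RD and 10.2 and 21.3 TPM in JR1, and the intervals of its ratios, 2.13 (0.932 to 5.52) and 2.09 (0.947 to 4.87), just held 1. Both intervals lay above 1 when centred and without the structural RNAs.

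SCARNA2, which guides the modification of a spliceosomal RNA and for which no host was found, held the most fragments of any member. It was 1432 TPM in RD shSCR, 1867 in RD shSKP2, 1438 in JR1 shSCR and 1674 in JR1 shSKP2, from 4851 to 8843 fragments. Its ratio was 1.303 in RD (interval 1.26 to 1.35) and 1.16 in JR1 (interval 1.13 to 1.202), and the controls of the lines were level. SCARNA10 was 407 and 504 TPM in RD and 349 and 396 TPM in JR1, with ratios of 1.24 (interval 1.14 to 1.35) and 1.14 (interval 1.04 to 1.24). Its host NCAPD2, a condensin subunit, was 72.7 and 46.4 TPM in RD and 34.5 and 23.3 TPM in JR1, lower with shSKP2 where the scaRNA was higher. SCARNA12 was 526 and 383 TPM in RD and 607 and 345 TPM in JR1, with ratios of 0.729 (interval 0.652 to 0.818) and 0.569 (interval 0.514 to 0.629). PHB2, a prohibitin of the mitochondrial inner membrane whose annotated exons cover SCARNA12, was 148.8 and 69.4 TPM in RD and 118 and 59.9 TPM in JR1, so both were lower in both lines.

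SCARNA5 and SCARNA6 lie in introns of the autophagy gene ATG16L1. SCARNA6 rose in RD, from 42.3 to 98.5 TPM, a ratio of 2.33 (interval 1.67 to 3.30), and was 63.2 and 79.3 TPM in JR1, where the interval held 1. Under both other scalings the JR1 interval of SCARNA6 lay above 1 as well. SCARNA5 was 73.1 and 139 TPM in RD, a ratio of 1.90 (interval 1.496 to 2.45), and 99.8 and 99.5 TPM in JR1. ATG16L1 was 15.6 and 16.2 TPM in RD and 11.7 and 14.3 TPM in JR1. SCARNA13 (160 to 213 TPM), SCARNA17 (52.4 to 60.4 TPM) and SCARNA28 (147 to 232 TPM) had intervals that held 1 in both lines, on 47 to 353 fragments. Under both other scalings the intervals of SCARNA17 in each line and of SCARNA28 in JR1 lay above 1, and without the structural RNAs those of SCARNA13 did in each line. SCARNA7 was between 4.22 and 7.19 TPM and SCARNA9 between 0.620 and 3.32 TPM. SCARNA9L, SCARNA16, SCARNA26A, SCARNA4 and SCARNA1 rested on 9 fragments or fewer in every library.

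**Figure D4:**
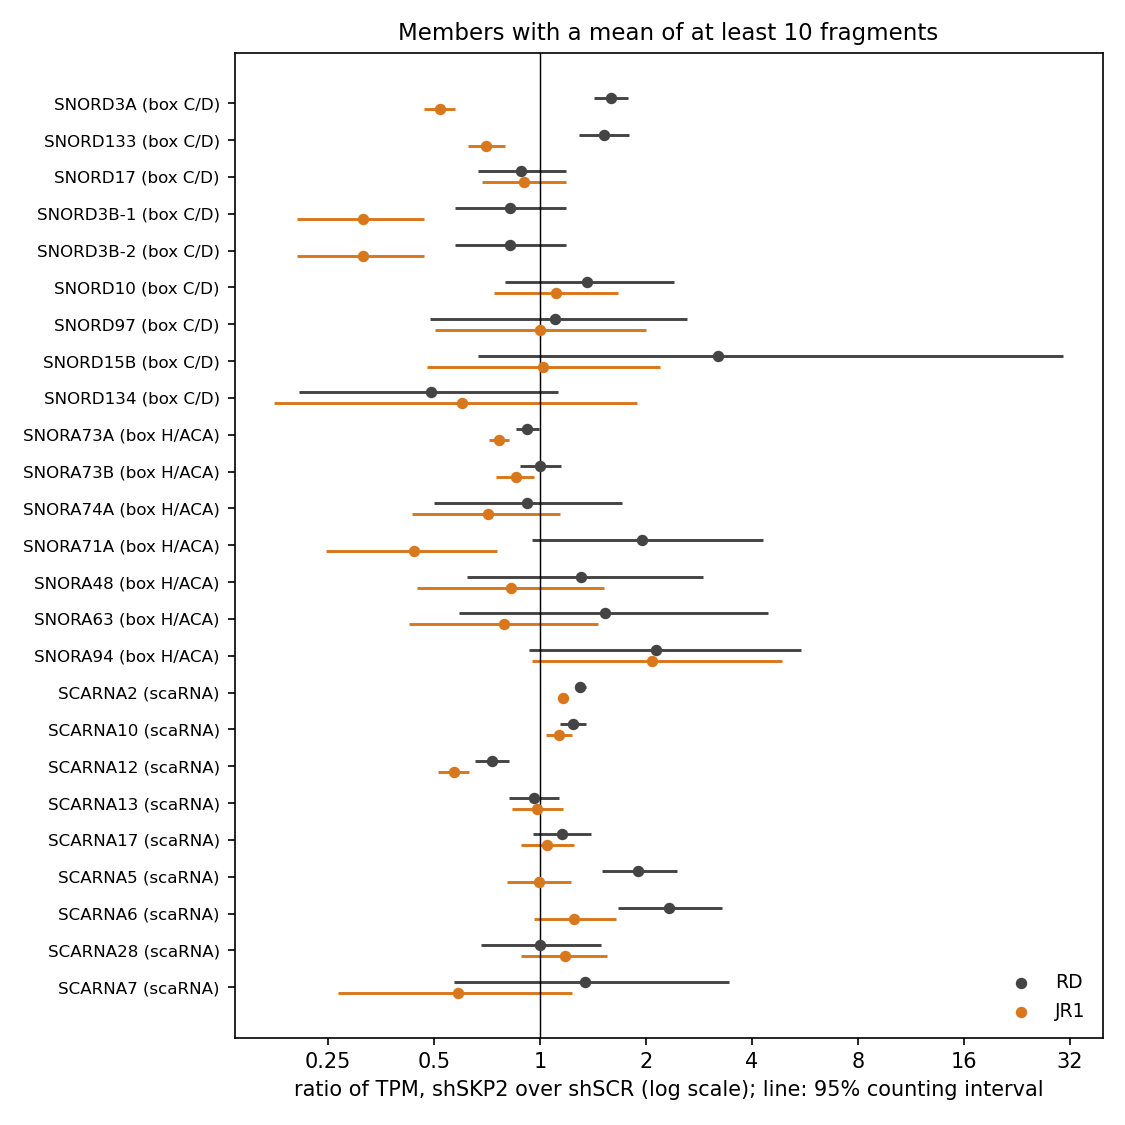
Ratio of TPM, shSKP2 over shSCR (log scale), of the 25 members with a mean of at least 10 fragments, in RD and JR1. Points are the ratios and lines their 95% counting intervals. SNORD3A and SNORD133 lie above 1 in RD and below 1 in JR1, SCARNA2 and SCARNA10 above 1 in both, and SNORA73A and SCARNA12 below 1 in both. TPM are as deposited. Under both other scalings the intervals of SNORA73A and SNORA71A lie above 1 in RD and below 1 in JR1.

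The interval of the ratio lay above 1 for 6 of 73 members with a fragment in either RD library and below 1 for 3. In JR1 it lay above 1 for 2 of 79 members and below 1 for 9. The 9 include the identical copies SNORD3B-1 and SNORD3B-2. These counts depended on the scaling. They were 12 above and 1 below in RD and 6 and 7 in JR1 when centred, and 15 and 0 in RD and 7 and 7 in JR1 without the structural RNAs. Fragments were not recovered for longer genes, so no share over all tested genes stands beside them. Of the 6 above 1 in RD, 4 were the scaRNAs SCARNA2, SCARNA5, SCARNA6 and SCARNA10. SCARNA2 and SCARNA10 were above 1 in both lines under each scaling. SCARNA12 was below 1 in both lines, except that its RD interval held 1 without the structural RNAs. SNORA73A was below 1 in both lines as deposited, but above 1 in RD and below 1 in JR1 under both other scalings. SNORA71A, whose RD interval held 1 as deposited, also lay above 1 in RD and below 1 in JR1 under both. No member had an interval below 1 in RD and above 1 in JR1.

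With TPM as deposited, the direction was shared by the lines for fewer of the members than of all genes (the plot of RD against JR1 changes), a difference that was not tested. Of the 90 members, 37 changed in the same direction in both lines with no minimum size (21 higher, 16 lower), which is 41.1%, against 78.1% of all tested genes. A further 26 went in opposite directions, 23 of them higher in RD and lower in JR1. Opposite changes of at least 2-fold were found for 9 members, against 14 of all 12985 tested genes (0.108%), with these 9 among the 14. None of the 9 had a mean of at least 10 fragments. The other 27 had no change in a line, since 17 were at 0 in both RD libraries and 10 in both JR1 libraries. Pearson's r across members was 0.06 and Spearman's rho 0.09, against 0.62 and 0.70 across all tested genes, as a description over genes that share 4 libraries. Of the 12985 tested genes, 7933 were lower in both lines with TPM as deposited. The share, r and rho of all tested genes were not recomputed under the other scalings. With at least 10 fragments, 16 of 25 members went the same way (64%), with r = 0.40, and the 9 that did not were all higher in RD and lower in JR1. Among these 9, SNORA73B was nearly level in RD (0.005), and SCARNA5 (-0.005) and SNORD97 (-0.003) were nearly level in JR1. With fewer fragments, 21 of 65 went the same way (32.3%). When centred, 16 of the 25 again went the same way, but 14 of them were among the first 16. Without the structural RNAs 15 did, 12 of them among the first 16, and the members higher in both lines went from 8 to 12 and 13.

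**Figure D5:**
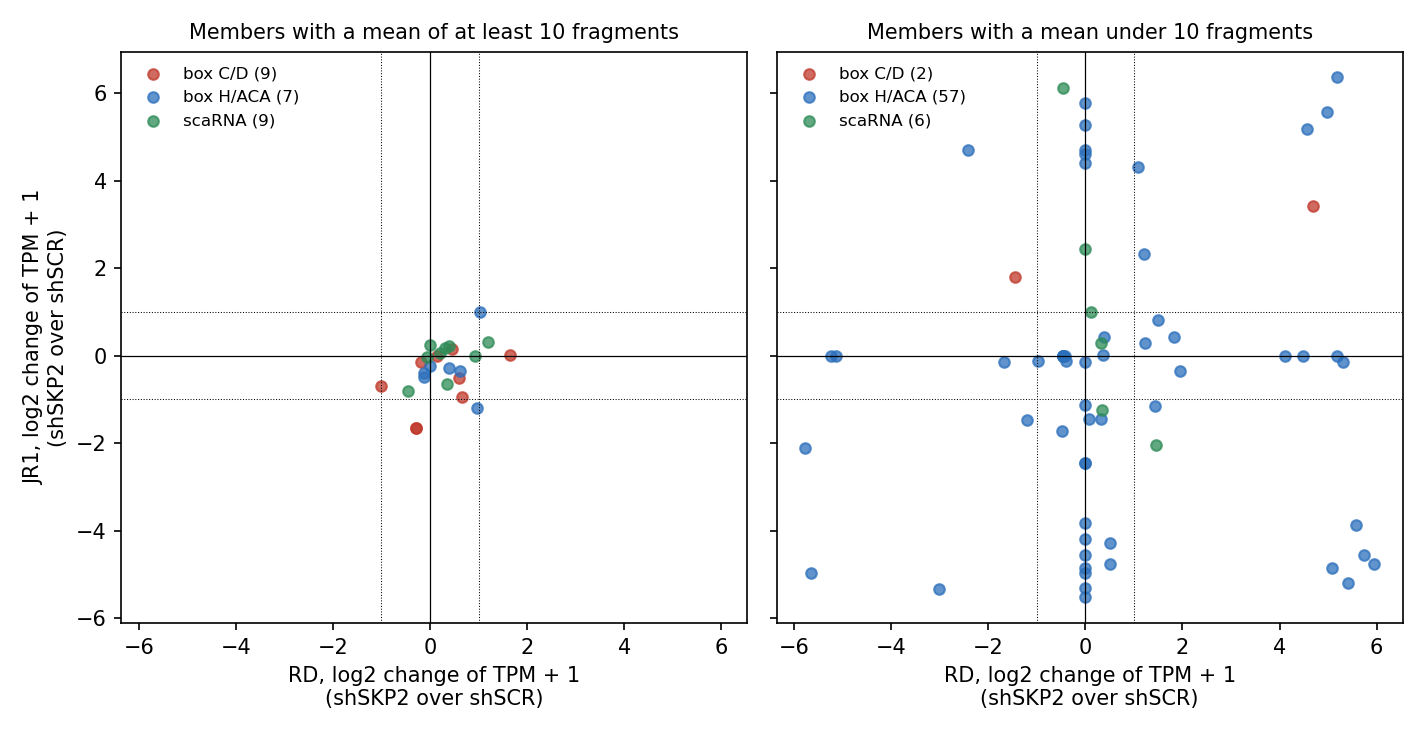
Log2 change of TPM + 1 with shSKP2 in JR1 against RD, 1 point per member, for 25 members with a mean of at least 10 fragments and 65 with fewer, by class. Dotted lines mark 2-fold. The members with more fragments lie near the centre, and those with fewer spread to both ends of both axes.

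In all, 6 members rose at least 2-fold in both lines and 4 fell in both, where 0.539% and 4.79% of tested genes did. The largest rises in both lines were those of SNORA38B, SNORA52 and SNORA47, each listed at 0 in both controls and at 1 to 3 fragments with shSKP2. SNORA79B had 69.2 TPM in RD shSCR and 161 with shSKP2 (4 and 13 fragments), and 10.9 and 58.8 TPM in JR1 (1 and 6 fragments). The intervals of its ratios, 0.718 to 9.78 and 0.655 to 248, held 1. The largest falls were those of SNORA44, on 1 fragment in each control and 0 with shSKP2, and SNORA71C. With TPM as deposited, no member that rose or fell in both lines had a mean of at least 10 fragments. When centred or without the structural RNAs, SNORA94 rose in both.

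In the control cells, 17 members were at least 2-fold higher in RD and 24 at least 2-fold higher in JR1, where 6.5% and 3.45% of tested genes were. Of the 25 members with at least 10 fragments, 1 was higher in RD and 3 in JR1. SNORD134 was 71.8 TPM in RD shSCR and 27.0 in JR1 shSCR. SNORD15B was 38.7 and 182 TPM, SNORA71A 351 and 846 TPM, and SNORA63 276 and 604 TPM in the same order.

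Copies with nearly the same sequence cannot be read apart with certainty. SNORA10, in an exon of RPS2 (chr16:1962334-1962466, minus strand), and SNORA10B (chr2:30187434-30187566, plus strand) differ at 2 of 133 positions, C14T and C126T, counted from the 5′ end of SNORA10. They are shown because 1 fragment was split between them in RD shSKP2, where each had 16.4 TPM.
SNORA10: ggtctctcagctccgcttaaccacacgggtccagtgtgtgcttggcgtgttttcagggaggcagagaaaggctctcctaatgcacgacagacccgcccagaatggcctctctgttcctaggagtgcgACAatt
SNORA10B: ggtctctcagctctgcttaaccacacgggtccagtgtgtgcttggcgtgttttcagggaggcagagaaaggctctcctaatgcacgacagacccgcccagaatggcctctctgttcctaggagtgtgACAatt
SNORA59A and SNORA59B are identical over 152 bases and shared 1 fragment in JR1 shSCR. SNORA7A and SNORA7B differ at 2 of 139 positions, and SNORA22 and SNORA22C at 2 of 134. The U3 genes SNORD3A, SNORD3B-1 and SNORD3B-2, described above, are such copies too.

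A host gene on the same strand was found for 75 of the 81 members with a strand, in 59 distinct genes. 38 of these members lay in introns, 33 within an exon of some host transcript and 4 partly in one. The median change of the hosts was -0.25 (RD) and -0.12 (JR1). None rose by 2-fold in either line, where 1.08% (RD) and 1.78% (JR1) of all tested genes did. In RD 2 of the 59 fell (PHB2 and RPL27A), where 7.37% of tested genes fell. In JR1 4 fell (RPL27A, SNHG3, SNHG4 and SNHG8), where 9.05% of tested genes did. Of the members above 0 in the line, the change was above that of the host for 40 of 59 in RD and 35 of 68 in JR1. Of the 17 with at least 10 fragments it was above for 15 in RD and 11 in JR1, with a median gap of 0.64 and 0.08 on the log2 scale. SNHG3, the host of SNORA73A and SNORA73B, was 49.1 and 30.5 TPM in RD and 43.5 and 19.7 TPM in JR1. That is a change of -0.67 and -1.11, beside -0.12 and -0.39 for SNORA73A.

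The proteins that bind, assemble and trim these RNAs were mostly lower with shSKP2 by less than 2-fold. Of 31 listed genes 30 were tested, and their median change was -0.33 (RD) and -0.26 (JR1), near those of all tested genes. Lower values were found for 28 in RD and 26 in JR1, where 9738 and 8943 of all 12985 tested genes were lower. None rose by 2-fold, where 1.08% and 1.78% of tested genes did. NHP2, a core protein of box H/ACA particles, fell in both lines and was 73.2 and 35.2 TPM in RD, 55.4 and 20.9 TPM in JR1. PIH1D1, an assembly factor, fell in RD (28.3 and 11.9 TPM) and was 13.5 and 7.51 TPM in JR1. The box C/D proteins FBL, NOP56, NOP58 and SNU13 differed by -0.17 to -0.53 in RD and by -0.02 to -0.56 in JR1, and NOP10 was the highest of the box H/ACA set, at 0.08 in RD and -0.08 in JR1.

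Other RNAs without a poly-A tail were also read in these libraries. Spliceosomal RNA genes summed to 9891 and 10345 TPM in RD and 11234 and 8501 TPM in JR1, a difference of 0.06 and -0.40, the same signs as the box C/D and box H/ACA sums. Replication-dependent histone genes differed by -1.57 in RD and -1.45 in JR1. The part of poly-A selection in the members' values was not tested.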

How the data were processed

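RNA-seq libraries were made by the study from poly-A selected RNA of 4 groups, with 1 library each, and read as pairs of 150 bases. The authors aligned reads to GRCh38 with STAR 2.7.9a and deposited TPM from RSEM 1.3.2, 1 value per gene; the annotation is not given in the sources used here. TPM were used as deposited. RSEM divides by an effective length, which nears 0 for genes shorter than most fragments; whether that gave the 0 of the shortest genes was not tested. Fragments behind low TPM were recovered from whole-number steps, assuming 1 curve of length for both libraries of a line, a method tested on simulated data. Groups came from the titles. Members, gene lists and the rule for named genes (highest members, largest changes shared by or opposite between lines, role groups, threshold neighbours, hosts) were chosen with earlier results of these data known. Hosts and strands came from GENCODE 44 and RefSeq. Changes used a pseudocount of 1 TPM. Alternatives were another pseudocount, centring, removal of structural RNAs, other minima, another limit and other lengths. Python 3.11.15, numpy 2.4.6, pandas 2.3.3 and scipy 1.17.1 were used.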

Additional observations from a re-analysis of the deposited data

Results flagged for a closer look

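With TPM as deposited, the following members had changes of opposite signs in RD and JR1 at 2-fold or more, or ratio intervals on opposite sides of 1. When centred and without the structural RNAs, the intervals of SNORA71A and SNORA73A also lay above 1 in RD and below 1 in JR1. With 1 library per condition the difference between the lines was not tested. SNORD3A changed by 0.67 in RD and -0.95 in JR1 on the log2 scale, and SNORD133 by 0.60 and -0.50, both on over 200 fragments in each library. The other flags rest on few fragments. SNORA57 changed by 1.44 and -1.16 (1 and 5 fragments in RD, 11 and 6 in JR1), SNORD94 by -1.45 and 1.80, and SCARNA26A by 1.46 and -2.05. SNORA10 (-2.41 and 4.71), SNORA64 (5.95 and -4.75), SNORA3A (5.42 and -5.19), SNORA71B (5.74 and -4.56), SNORA21 (5.08 and -4.86) and SNORA74D (5.57 and -3.87) were listed at 0 in at least 1 library, so that the sizes follow from the added 1 TPM and are no measure of a fold. Opposite changes of at least 2-fold were found for 9 of 90 members and for 14 of all 12985 tested genes (0.108%), with the 9 among the 14.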

How the results depend on the processing

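The counts of called members were recomputed under 9 other settings, and the class medians and the count of members with the same direction under 8 of these, 2 of them chosen after seeing the data. Centred on all tested genes, the JR1 medians of box C/D and box H/ACA members turned from -0.15 and -0.19 to 0.062 and 0.024, and without the other short structural RNA genes that of box C/D members turned to 0.113. Members with at least 10 fragments, chosen after seeing the data, left 4 called in RD, 3 in JR1 and 16 in the same direction, and members of at least 150 bases, also chosen afterwards, left 5, 7 and 19, of 25 and 31 members. In the longer members the box C/D median was -0.227 in RD and -0.822 in JR1. These counts are lower in part because fewer members were counted. The other 63 of 74 values moved by less than 1.5 times (medians, by less than that fold) with no change of sign. A 1.5-fold shift is larger than any class median over all members, so this limit says little of how stable the medians are. Without the structural RNAs the RD median went from 0.141 to 0.539 for box C/D and from 0.31 to 0.709 for scaRNA members. Members of at least 100 bases gave the values as reported, since the shortest member is 129 bases long and none was removed. These values are among the 63. A pseudocount of 0.1, a minimum mean of 5 TPM or none, and a limit of 1.5-fold gave 32 to 40 called members in RD and 39 to 52 in JR1. Each change already sets the shSKP2 library beside the shSCR library of its own line, and a fit with line as a block, which would take the lines as replicates, was not run. The labels give no replicate numbers, and leaving out a library leaves a line with no comparison. Depth limits most members, 65 of which had a mean under 10 fragments.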
